A study of Bos taurus with 12 samples.

Results

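The genes of the cytosolic ribosomal proteins were taken as every gene whose bovine RefSeq symbol is RPL or RPS with a number, together with RPSA, RPLP0, RPLP1 and RPLP2. The S6 kinase genes, which begin with the same letters, were left out. The rule found 84 of the 30336 genes counted, 51 of the large and 33 of the small subunit. RNA came from liver biopsies of 12 Holstein heifer calves at 4 d of age. The 6 CON calves were born to cows on a basal diet without added methionine, and the 6 MET calves to cows given the same diet plus ethyl cellulose methionine (Mepron), which escapes breakdown in the rumen, over the last 28 d of gestation. Each calf was first offered colostrum of its own dam, in the same amount, and all were otherwise fed and managed alike after birth. The diets compared are those of the dams, and supply before birth and through colostrum cannot be told apart. The question was whether maternal methionine supply was followed by another level of these mRNAs in the liver of the offspring.

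Each ribosome joins a small subunit, which holds the mRNA and reads its codons, to a large subunit, which forms the peptide bonds and lets the new chain out through a tunnel. Cells make the proteins of both subunits in matched amounts, from mRNAs that are abundant in most tissues and start with a run of pyrimidines, the 5′ TOP motif. Through that motif the mTORC1 kinase, which senses amino acids, and the binding protein LARP1 govern their translation and stability, so mRNA level is only one layer of the control of ribosome production.

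The 12 libraries held 8277789 to 10397604 reads assigned to genes. The counts of CON replicates 1 and 4 were almost those of 1 library sequenced again, with a chi-square per gene of 1.33, and so were those of MET replicates 1 and 3, with 1.24. The next closest of the 66 pairs of libraries stood at 25.2 and the farthest at 133. Each of these close pairs was counted as 1 sample, which left 5 samples per diet for means and SD. All libraries ran on 1 lane with 1 first index for CON and another for MET, so index and diet cannot be told apart. All 8 hepatocyte markers were tested, with summed levels of 136174 to 183410 CPM in CON and 111109 to 144416 in MET (CPM, counts scaled to a common library total with TMM factors). In liver pieces of mixed cells, fewer cells of a type and less RNA per cell cannot be told apart.

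As genes on assembly UMD 3.1.1, the 84 members lay on 28 chromosomes, 4 of them on X. Their exons were short, with a median total of 684.5 bases against 2807 for all genes tested. The large subunit genes spanned 309 to 2308 bases (median 716) and the small subunit genes 295 to 1271 (median 618). No member shared an exonic base with another gene of the same strand. A total of 81 members, 48 large and 33 small, had enough reads to be tested, each with at least 87 reads in every library. The 3 others were of the large subunit. RPL10L, known as a testis copy of RPL10, had 0 reads in all libraries, which allows up to 0.289 to 0.362 CPM (3 reads of a library). RPL3L, known as a muscle copy of RPL3, had 99 reads over the 12 libraries. RPL19, a protein of the rim of the tunnel exit, had 52, but its model in the files is a single exon of 309 bases on chromosome 7 (111081606 to 111081914, minus strand), and the later assembly puts this gene on another chromosome. The level of the RPL19 mRNA was therefore not read from these counts. RPL41 was not analysed here.

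Levels were compared between genes as CPM per kb of exon, over the 10 samples of both diets. Reads that matched several places were not counted, which lowers genes with close copies elsewhere in the genome, so the order describes counted reads. The median tested member stood at 386 CPM per kb, 334 in the large and 480.4 in the small subunit, and 75 of the 81 lay above 100 CPM per kb. RPLP1 of the ribosomal stalk was highest at 1702 ± 357 (SD, n = 10). RPS2, which lines the mRNA entry channel, followed at 1370.3 ± 250.4 and RPS24, one of the genes of Diamond-Blackfan anaemia, at 1204 ± 106. Among the next were RPL23 of the face between the subunits at 1131 ± 172, RPL27A at 942 ± 157 and RPS12 at 897 ± 220.4. RPLP1 and RPS2, RPS2 and RPS24, and RPS24 and RPL23 each differed by less than the larger SD of the pair. Also among the 5 highest of the large subunit were RPL14 at 694 ± 112 and RPL7A at 644 ± 78.8.

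At the low end of the order, 5 of the 6 members under 100 CPM per kb were paralogs of another member. RPL26L1 had 11.8 ± 0.839 CPM per kb and RPL22L1 13.2 ± 1.86, the lowest of all. The sixth was RPL15, which lies in the large subunit core and in the files has 2308 exonic bases, the longest model of the set, at 30.3 ± 7.79. In the small subunit RPS27L (37.7 ± 7.12) and RPS4Y1 (54.5 ± 15) were lowest, followed by RPS21 at 179 ± 30.2. The span from RPLP1 to RPL26L1 was 144-fold, and 56.1-fold among the 75 tested members that are no paralogs.

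**Figure D1:**
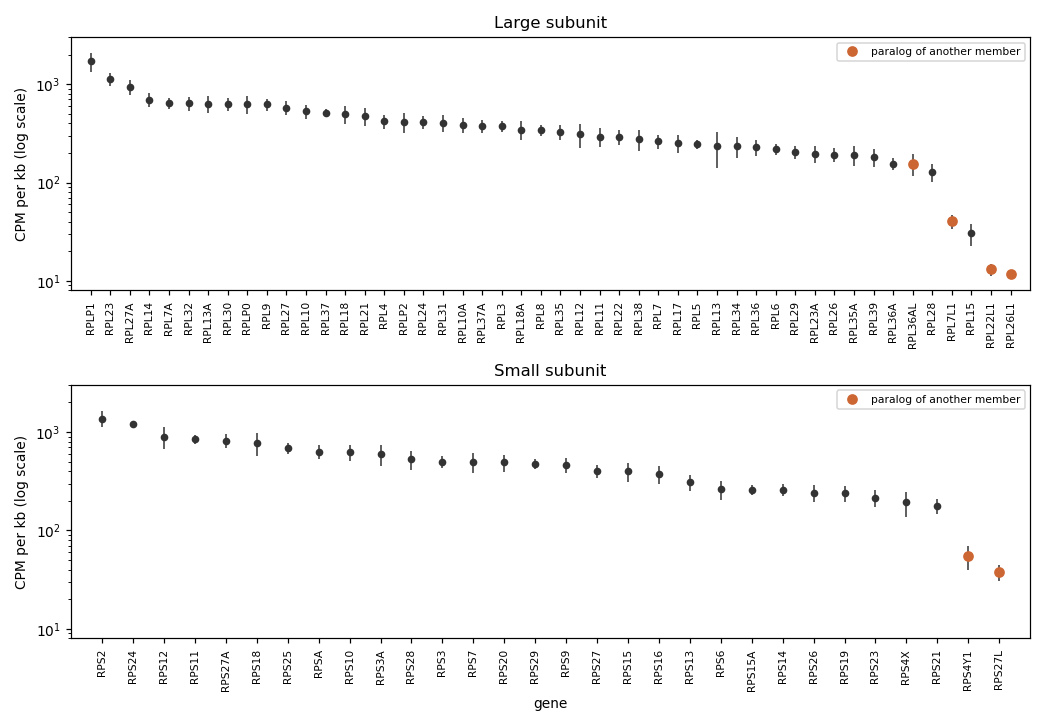
Levels of 78 of the 81 tested members per kb of exon in CPM (log axis), large subunit above and small subunit below. Points are means and bars SD over the 10 samples of both diets, with paralogs of another member in orange. RPLP1 stands highest at 1702 CPM per kb, and RPL26L1 and RPL22L1 lowest at 11.8 and 13.2.

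Ribosomal protein mRNAs took a slightly larger share of the reads in MET, and the ranges of the diets overlapped. Both subunits together held 2.36 ± 0.135% of the counted reads in CON and 2.76 ± 0.506% in MET (SD, n = 5 each). Large subunit genes held 1.20 to 1.43% in CON and 1.23 to 1.94% in MET, and small subunit genes 1.01 to 1.14% and 1.07 to 1.63%. The highest value of both was that of MET replicate 6, without which MET reached 1.57 and 1.33% and the MET mean of both subunits together was 2.55%. The balance between the subunits was steadier than their level. There were 1.19 ± 0.0336 large subunit reads for each small subunit read in CON and 1.19 ± 0.0233 in MET. In every library the median deviations of the 2 subunits from the mean of the 12 libraries differed by at most 0.044 on the log2 scale.

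Of the 81 tested members, 72 had a higher fitted level in MET and 9 a lower one, a share of 88.9% above 0 against 49.6% of all 13212 genes tested. The median log2 fold change (MET over CON) was 0.16 in the large and 0.20 in the small subunit, against -0.0031 over all genes. In the quasi-likelihood test of edgeR over the 12 libraries, at an FDR of at most 0.10 after adjustment by the method of Benjamini and Hochberg, 2 of 81 members were called, both higher in MET, against 4.41% of all genes called in either direction and 2.09% called higher. Both belonged to the large subunit, and 0 of 33 small subunit genes were called. At an unadjusted p of at most 0.05, 17 members passed, 8 large and 9 small, which is 21.0% of them against 20.5% of all genes. DESeq2 called 11 of 81 members, 6 large and 5 small and all higher in MET, against 10.4% of all genes. Over the 10 samples edgeR called 0 of 81 members and 0 of 13242 genes, with 17 members and 2165 genes at an unadjusted p of at most 0.05, while DESeq2 called 5 members and 639 genes, or 5.71% of those it tested. The 2 members called by edgeR over the 12 libraries were among those DESeq2 called in both sets of samples. Where no other tool or set of samples is named, the calls and adjusted p given below are those of edgeR over the 12 libraries. The p-values of the 12 libraries take the close pairs as separate calves, and those of the 10 samples do not.

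**Figure D2:**
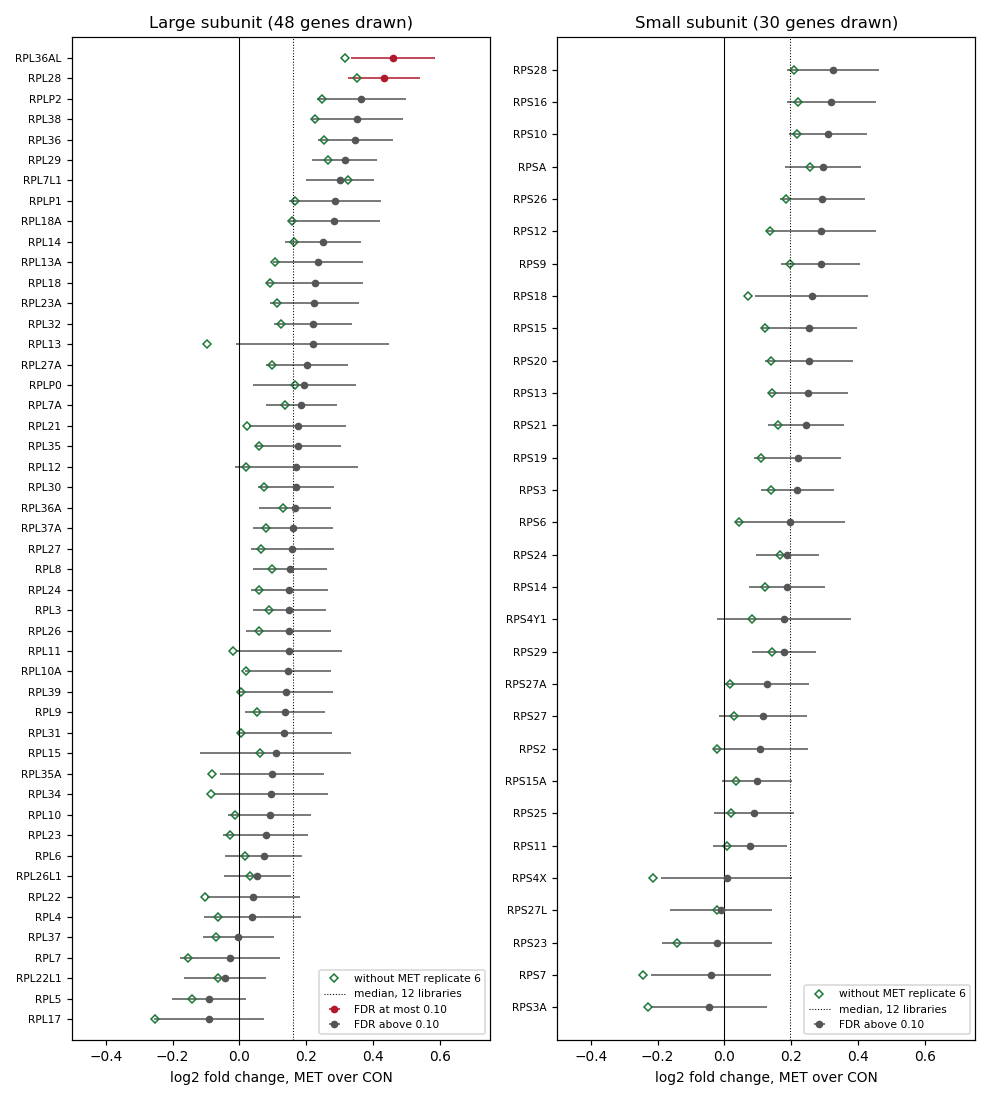
Log2 fold change (MET over CON) of the 48 large and of 30 of the 33 small subunit genes tested. Points are edgeR estimates over the 12 libraries with bars of 1 standard error, red at an FDR of at most 0.10. Green diamonds are the estimates without MET replicate 6, and the dotted lines mark the medians of all tested genes of a subunit, 0.16 and 0.20. Most points lie right of 0, and most diamonds lie left of their point.

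RPL28, a large subunit protein found in eukaryotes and not in bacteria, rose in MET. Its gene lies on chromosome 18 (62547219 to 62550417, minus strand). CON replicates 2, 3, 5 and 6 and the close pair of CON had 125, 104, 110.1, 122 and 126 CPM, and MET replicates 2, 4, 5 and 6 and the close pair of MET had 147, 168, 155, 202 and 145. Every MET sample stood above every CON sample. The means were 117 ± 9.97 CPM in CON and 163 ± 23.3 in MET (SD, n = 5 each), with a log2 fold change of 0.43 ± 0.11 (standard error) and an adjusted p of 0.0719 in the 12 libraries or 0.175 in the 10 samples. Leaving out MET replicate 6 gave a log2 fold change of 0.35 and an adjusted p of 0.104. The call was lost without CON replicate 1, 3, 4 or 5 and without MET replicate 1, 4 or 6, and over all 12 such fits the adjusted p ran from 0.0857 to 0.133.

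RPL36AL, an autosomal copy of RPL36A whose protein touches the exit site for spent tRNA, also rose. The gene lies on chromosome 10 (42699000 to 42700709, minus strand). In the same order of samples, CON had 69.6, 71.9, 67, 69.1 and 69.9 CPM and MET 91.3, 90.1, 86.6, 139 and 83.2. The CON samples were almost level with each other, and MET replicate 6 stood far above the 4 other MET samples, which were still above all CON samples. Means were 69.5 ± 1.76 CPM in CON and 98.1 ± 23.3 in MET (SD, n = 5 each), and the log2 fold change was 0.46 ± 0.13 with an adjusted p of 0.0849 in the 12 libraries or 0.18 in the 10 samples. Without MET replicate 6 the log2 fold change was 0.32 and the adjusted p 0.0892. Of the 12 fits that left out a library, only those without MET replicate 3 or 6 kept the call, and the adjusted p ran from 0.0892 to 0.147. RPL36A itself, on X, had 67.3, 54.1, 48.1, 66.2 and 67.5 CPM in CON and 68.5, 75.6, 63.9, 77.3 and 65.4 in MET, which overlapped (log2 fold change 0.17 ± 0.11, adjusted p 0.403). Since the 2 mRNAs are close copies and reads that matched several places were not counted, how their reads split is uncertain.

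**Figure D3:**
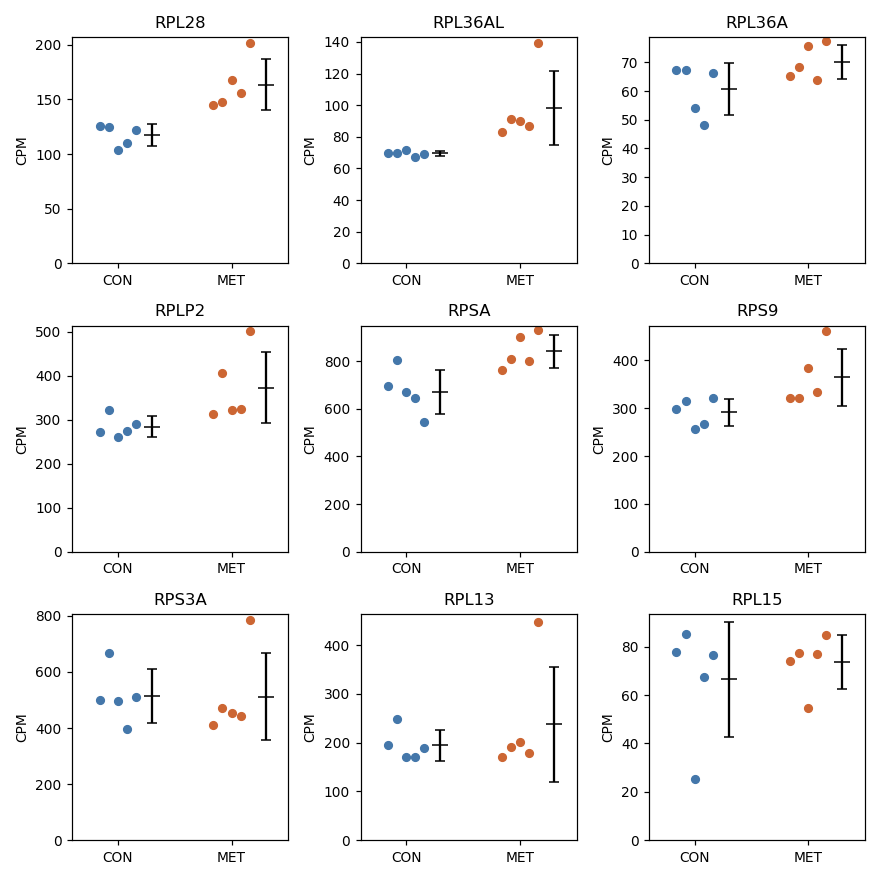
Levels in CPM of 9 members in the 5 CON (blue) and 5 MET (orange) samples, with the mean and SD of each diet in black. The vertical axes start at 0. RPL28 and RPL36AL separate the diets, MET replicate 6 is the last orange point of each panel, and the low point of RPL15 is CON replicate 3 at 25.3 CPM.

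The proteins of the stalk, which draws elongation factors to the large subunit, did not pass the threshold in edgeR. RPLP2, next in size of change after the called pair, had 322, 261, 274, 291 and 272 CPM in CON and 406, 322, 324, 502 and 312 in MET. The lowest MET sample lay under the highest CON sample, CON replicate 2. Its log2 fold change was 0.36 ± 0.13 with an adjusted p of 0.151, and DESeq2 called it over the 12 libraries (adjusted p 0.0776) and not over the 10 samples (0.137). RPLP1, its partner, ranged over 682 to 848 CPM in CON and 821 to 1328 in MET (log2 fold change 0.29 ± 0.14, adjusted p 0.255). RPLP0, the base of the stalk, ranged over 519 to 781 CPM in CON and 588 to 944 in MET (log2 fold change 0.19 ± 0.15, adjusted p 0.496), and its highest sample was MET replicate 4 and not replicate 6.

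RPL36 and RPL38 completed the 5 largest changes of the large subunit. RPL36, a protein found in eukaryotes and not in bacteria, had 125, 106, 115, 126 and 118 CPM in CON and 158, 147, 134, 196 and 134 in MET, without overlap, and an adjusted p of 0.115 at a log2 fold change of 0.35 ± 0.11. DESeq2 called RPL36 over the 12 libraries (adjusted p 0.0395) and over the 10 samples (0.0862). RPL38, known from mouse mutants for its part in the translation of Hox mRNAs, had 122, 86.4, 84.6, 93.1 and 106 CPM in CON and 124, 116, 117, 178 and 114 in MET. A single CON sample, replicate 2, reached into the MET range of RPL38 (log2 fold change 0.35 ± 0.14, adjusted p 0.178). RPL29, a heparin-binding protein picked out after its values were seen, and RPL14 also had diets that did not overlap. RPL29 ranged over 144 to 183 CPM in CON and 189 to 241 in MET (log2 fold change 0.32 ± 0.097, adjusted p 0.107), and RPL14 over 393 to 484 CPM in CON and 491 to 691 in MET (log2 fold change 0.25 ± 0.11, adjusted p 0.232). DESeq2 called RPL29 over the 12 libraries (adjusted p 0.0145) and over the 10 samples (0.064), and RPL14 in neither. With RPL28, RPL36AL and RPL36 these made 5 large subunit genes with every MET sample above every CON sample. Together with 2 genes of the small subunit, of which RPS10 is given below, they were 7 of 81 members, 8.64%, against 1.94% of all genes tested, and 0 members had every MET sample below every CON sample.

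The 2 proteins that carry the 5S rRNA into the large subunit, and that bind MDM2 when ribosome assembly fails, did not pass the threshold. RPL5 ranged over 215 to 289 CPM in CON and 228 to 288 in MET, with a log2 fold change of -0.09 ± 0.11, among the 3 lowest of the large subunit. RPL11 ranged over 261 to 348 CPM in CON and 257 to 487 in MET (log2 fold change 0.15 ± 0.16, or -0.018 without MET replicate 6). The diets overlapped in both genes, and their adjusted p were 0.681 and 0.636.

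Along the exit tunnel, RPL17 had the lowest log2 fold change of its subunit at -0.091 ± 0.16 (adjusted p 0.795). Its CON samples had 193, 173, 124, 176 and 146 CPM and its MET samples 131, 156, 132, 229 and 126, so that MET replicate 6 was the highest sample and 3 of the 4 other MET samples were at 132 CPM or less. RPL4, which narrows the tunnel, ranged over 481 to 644 CPM in CON and 445 to 765 in MET (log2 fold change 0.039 ± 0.14). RPL39, among the smallest ribosomal proteins, ranged over 53.1 to 71.9 CPM in CON and 55.8 to 98.2 in MET (log2 fold change 0.14 ± 0.14). Of the proteins around the exit, RPL23A, a docking site of the signal recognition particle, had 0.22 ± 0.13, RPL35 0.17 ± 0.13, RPL26 0.15 ± 0.13 and RPL31 0.13 ± 0.14. The adjusted p of these 7 genes lay between 0.357 and 0.913, and the diets overlapped in all of them. Without MET replicate 6 the log2 fold change was -0.063 for RPL4, 0.0052 for RPL39, 0.0036 for RPL31, 0.11 for RPL23A and 0.058 for RPL26.

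In the small subunit the 5 largest log2 fold changes lay close together, between 0.30 and 0.32, and none passed the threshold in edgeR. Of the genes given here, DESeq2 over the 12 libraries called RPS10 (adjusted p 0.0704), RPSA (0.057) and RPS24 (0.0549), and none of these over the 10 samples. RPS28, a protein close to the mRNA exit, had 177, 117, 156, 157 and 163 CPM in CON and 202, 184, 176, 267 and 169.9 in MET (log2 fold change 0.32 ± 0.14, adjusted p 0.206). RPS16, whose tail reaches the tRNA in the peptidyl site, had 216, 142, 185, 201 and 178 and 211, 232, 236, 303 and 195 (log2 fold change 0.32 ± 0.13, adjusted p 0.2). In both genes MET replicate 6 was highest and CON replicate 3 lowest, and CON replicate 2 lay inside the MET range, as did CON replicate 6 for RPS16.

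RPS10, a protein of the head of the small subunit, had 365, 275, 314, 318 and 334 CPM in CON and 375, 387, 388, 524 and 366 in MET. The diets did not overlap, though CON replicate 2 and the close pair of MET were nearly level, and the adjusted p was 0.158 at a log2 fold change of 0.31 ± 0.12. RPSA, also known as the laminin receptor, had 804, 669, 643, 544 and 694 CPM in CON and 808, 900.4, 800.3, 929.9 and 764 in MET (log2 fold change 0.30 ± 0.11, adjusted p 0.171). For RPSA only CON replicate 2 reached the MET range, and the value of MET replicate 6 was close to that of MET replicate 4 (RPSA log2 fold change 0.26 without MET replicate 6).

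The other small subunit proteins named here for an assigned role had adjusted p between 0.192 and 0.708. RPS9, which served the study as an internal control of its quantitative PCR, had 314, 256, 267, 321 and 298 CPM in CON and 322, 383, 333, 462 and 321 in MET. Its MET mean was higher, at 291 ± 28.8 CPM in CON and 364 ± 60.4 in MET, and CON replicate 6 reached the lowest MET samples (log2 fold change 0.29 ± 0.12, adjusted p 0.192). RPS6, the target of the S6 kinases below mTORC1, had 262, 233, 214, 248 and 193 and 279, 235, 251, 383 and 196 CPM (log2 fold change 0.20 ± 0.16, adjusted p 0.521). Its lowest samples were the close pairs of both diets. At the mRNA entry, RPS3 had a log2 fold change of 0.22 ± 0.11 and RPS2 of 0.11 ± 0.14. RPS27A, made as a fusion with ubiquitin, ranged over 404 to 516 CPM in CON and 437 to 678 in MET (log2 fold change 0.13 ± 0.13). RPS24 and RPS12, among the most abundant, had 0.19 ± 0.094 and 0.29 ± 0.16, and RPS24 had the smallest relative spread of its subunit over the 10 samples at a coefficient of variation of 8.82%.

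At the other end, RPS3A, a protein of the platform of the small subunit, had 667, 497, 395, 510.0 and 499.5 CPM in CON and 470.4, 452, 442, 785 and 411 in MET. MET replicate 6 was above all CON samples and the 4 other MET samples lay between 411 and 470.4 CPM, so the log2 fold change was -0.046 ± 0.17 with all libraries and -0.23 without that one. RPS7 (-0.041 ± 0.18) and RPS23 of the decoding centre (-0.023 ± 0.16) behaved likewise, with -0.24 and -0.14 without MET replicate 6. None of these 3 genes passed the threshold, with adjusted p of 0.913, 0.928 and 0.956.

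The level of ribosomal protein mRNA in MET depended much on 1 library. MET replicate 6 was the highest of the 10 samples for 73 of 81 members, 42 large and 31 small, and its CPM was at a median 1.47 times the mean of the 9 other samples. The ratio ran from 0.999 for RPL7L1 to 2.35 for RPL13. RPL13, picked out after its values were seen, had 249, 171, 170.4, 188 and 195 CPM in CON and 190.4, 202, 178, 448 and 171 in MET, and its log2 fold change went from 0.22 ± 0.23 to -0.097 without that library. On the low side, CON replicate 3 was the lowest sample for 43 members and CON replicate 5 for 24. RPL15 is an example, with 85.2, 25.3, 67.3, 76.6 and 77.9 CPM in CON and 77.4, 54.7, 77.1, 84.7 and 74.2 in MET (log2 fold change 0.11 ± 0.23, adjusted p 0.826). RPL26L1 had the smallest spread of all members, with a coefficient of variation of 7.12%, and RPL13 the largest at 39.1%.

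Without MET replicate 6, the median log2 fold change was 0.060 in the large and 0.12 in the small subunit. Of the 81 members 61 then remained above 0, 35 large and 26 small, from -0.25 for RPL17 to 0.35 for RPL28, and 1 member was called, RPL36AL, against 1.62% of all genes. The 4 other MET samples deviated by a median of -0.056 to 0.052 from the mean of the 12 libraries in their large subunit genes, inside the CON range of -0.24 to 0.091. The small subunit gave -0.050 to 0.064 against -0.23 to 0.073. MET replicate 6 itself stood at 0.50 and 0.54. In this library the summed marker levels of hepatocytes (140762 CPM) and macrophages (1763 CPM) lay within the range of the 4 other MET samples, 111109 to 144416 and 1429 to 1914 CPM, as did those of bile duct, erythroid cells and lymphocytes. The endothelial markers (298 CPM) and the stellate cell and fibroblast markers (709.8 CPM) lay above the 4 other MET samples, at 164 to 225 and 429 to 593 CPM, and inside the CON ranges of 182 to 342 and 560.5 to 861 CPM. Their part in the result was not tested. Its 9770316 reads lay within the range of the other libraries.

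**Figure D4:**
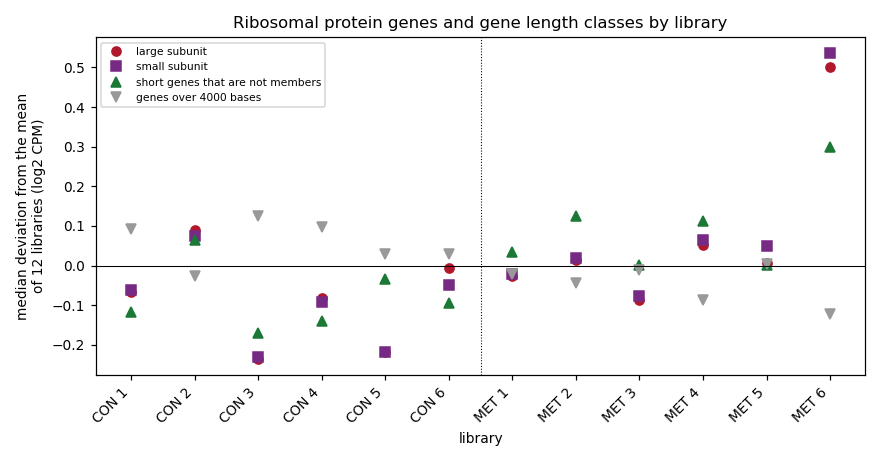
Median deviation of log2 CPM from the mean of the 12 libraries, for large and small subunit genes, short genes that are not members and genes over 4000 bases, in each of the 12 libraries (dotted line between the diets). The 2 subunits lie on each other in all libraries. MET replicate 6 stands at 0.50 and 0.54, and its short genes at 0.30, while its long genes are at -0.12.

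Short genes of other kinds had a median change of the same sign as the ribosomal protein genes. Short here means at most 1179.8 exonic bases, the 90th percentile of the members, which 1411 tested genes outside the set met. Their median log2 fold change was 0.18, with 73.4% above 0, against 0.17 and 88.9% for the members. The middle 50% of the members lay between 0.097 and 0.25, and that of the short genes was wider, -0.015 to 0.35. Of the short genes 91 were called, 80 of them higher in MET, which is 6.45% against 2.47% of the members and 4.41% of all genes. By classes of length, the median of genes outside the set went from 0.26 up to 500 bases, through 0.18 at 500 to 700, 0.21 at 700 to 1000, 0.13 at 1000 to 1500 and 0.067 at 1500 to 2000 and 0.011 at 2000 to 3000, to -0.14 above 6000 bases. The members themselves showed little of this trend, with medians of 0.17 up to 500 bases (14 genes), 0.17 at 500 to 700 (30 genes), 0.18 at 700 to 1000 (20 genes) and 0.15 at 1000 to 1500 (14 genes). The 3 members of 2000 to 3000 bases had a median of 0.17, above that of the other genes of this length.

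**Figure D5:**
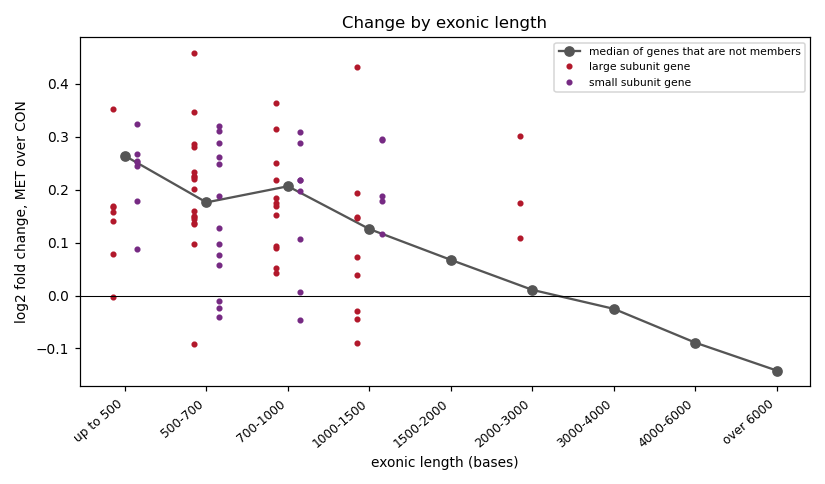
Log2 fold change (MET over CON) against exonic length in 9 classes. The line joins the medians of the tested genes that are not members, and the dots are the single large (red) and small (purple) subunit genes. The line goes from 0.26 to -0.14, and the ribosomal protein genes scatter about it in the classes up to 1500 bases, while the median of the 3 members of 2000 to 3000 bases, 0.17, is above the 0.011 of the line.

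A like contrast was seen within single libraries. In MET replicate 6, short genes outside the set stood at a median deviation of 0.30 and genes over 4000 bases at -0.12, and CON replicate 3 had the opposite pair, -0.17 and 0.13. MET replicate 5 had no such contrast, at 0.0027 and 0.0047. Ribosomal protein genes went further than the short genes in MET replicate 6, and in CON replicate 5 they were at -0.22 where short genes were at -0.033. When the trend of log2 CPM on log2 length was removed within each library, the median log2 fold change was -0.0071 in the large and 0.035 in the small subunit, and 45 of 81 members lay above 0. Then 0 members and 245 of all genes, 1.85%, were called by edgeR. At an unadjusted p of at most 0.05 were 5 members, 6.17% of them, against 17.8% of all genes. The log2 fold change of RPL28 was then 0.31 (adjusted p 0.126), that of RPL7L1 0.30 and that of RPL36AL 0.24 (adjusted p 0.221). The part of gene length in the change of the ribosomal protein genes was not tested beyond this, since nearly all members are short.

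Of the 8 paralogs among the members, RPL36AL was near its partner in level per length, and the others lay well below theirs. RPL36AL reached 99.4 ± 18.0% of RPL36A over the 10 samples, with 90.8 ± 13.9% in CON and 108 ± 18.6% in MET (SD, n = 5 each), ranges that overlapped. RPS4Y1, named after the Y-linked copy of other mammals but placed on chromosome 23 in the files, reached 29.2 ± 8.54% of RPS4X. RPL7L1 reached 15.8 ± 3.66% of RPL7, RPS27L, known as a p53 target, 9.48 ± 2.07% of RPS27, RPL26L1 6.23 ± 0.889% of RPL26 and RPL22L1 4.61 ± 0.902% of RPL22. RPL3L stood at 0.176 ± 0.0652% of RPL3, and RPL10L had no reads beside 528 CPM per kb of RPL10.

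In their change with the maternal diet the paralogs and partners were as follows. RPL7L1 had 74.9, 69.1, 76.2, 92.1 and 78.1 CPM in CON and 91, 116, 103, 87.7 and 90.2 in MET, with a log2 fold change of 0.30 ± 0.10 (adjusted p 0.127), while RPL7 had -0.03 ± 0.15 (adjusted p 0.937). RPL7L1 was the only tested member whose level in MET replicate 6 was below the mean of the 9 other samples. RPL22L1 had -0.044 ± 0.12 and RPL22 0.042 ± 0.14, RPL26L1 0.053 ± 0.10 beside RPL26 above, and RPS27L -0.01 ± 0.15 beside RPS27 at 0.12 ± 0.13. RPS4Y1 had 0.18 ± 0.20 and RPS4X 0.0064 ± 0.20, and RPL3 and RPL10 had 0.15 ± 0.11 and 0.09 ± 0.12. None of these genes was called by edgeR, with adjusted p from 0.127 to 0.988, and differences between the members of a pair were not tested. DESeq2 called RPL7L1 over the 12 libraries (adjusted p 0.0537) and not over the 10 samples (0.134).

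A few proteins of the ribosome carry names outside the rule. FAU, a ubiquitin-like protein fused to a small subunit protein, ranged over 41.3 to 52.4 CPM in CON and 51.5 to 85.3 in MET (log2 fold change 0.35 ± 0.13, adjusted p 0.144). DESeq2 called FAU over the 12 libraries (adjusted p 0.0951) and not over the 10 samples (0.1003). RACK1, a scaffold for signalling proteins on the small subunit, ranged over 457 to 604 CPM in CON and 543 to 724 in MET (log2 fold change 0.13 ± 0.11, adjusted p 0.548). RPS19BP1, which binds RPS19 and is no ribosomal protein, rose with 36.8, 31.2, 36.1, 34.9 and 26.6 CPM in CON and 42.7, 59.5, 39.1, 55.3 and 38 in MET (log2 fold change 0.50 ± 0.14, adjusted p 0.0868 in the 12 libraries or 0.183 in the 10 samples).

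Other mRNAs with the TOP motif did not have the same sign as the ribosomal protein genes on balance. Of 15 listed, mainly elongation and initiation factors, 4 had a higher and 11 a lower fitted level in MET, with a median log2 fold change of -0.090. One was called over the 12 libraries, EEF1D, a subunit of the exchange factor of elongation factor 1A (log2 fold change 0.44 ± 0.12, adjusted p 0.08). EEF1A1 had -0.20 ± 0.12, EEF2 -0.11 ± 0.12, PABPC1 -0.29 ± 0.11 and TPT1 -0.097 ± 0.13, with adjusted p from 0.161 to 0.706. EIF4B had the largest fall of the 15 (log2 fold change -0.49 ± 0.15, adjusted p 0.113). DESeq2 over the 12 libraries called EEF1D (adjusted p 0.0107), EIF4B (0.0494) and PABPC1 (0.079), and over the 10 samples EEF1D alone (0.0339). These 15 genes were longer than the members, with a median of 1699 exonic bases. Their median log2 fold change was -0.13 after the length trend was removed.

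Of 30 genes of ribosome biogenesis, 25 had a higher and 5 a lower fitted level in MET, with a median log2 fold change of 0.19 and 0.18 after the length trend was removed. The 3 of 30 called by edgeR over the 12 libraries rose, against 4.41% of all genes called in either direction, and edgeR called none over the 10 samples. DESeq2 called 5 of 30 over the 12 libraries and 3 of 30 over the 10 samples, all higher in MET, against 10.4% and 5.71% of all genes. Over the 10 samples DESeq2 gave no adjusted p for NPM3, which had 9 to 49 reads per library. NPM3, a nucleolar chaperone, had 1.25, 1.37, 1.46, 2.49 and 1.33 CPM in CON and 3.22, 5.63, 5.47, 4.73 and 2.53 in MET, without overlap (log2 fold change 1.36 ± 0.28, adjusted p 0.047). IMP4, of the complex that processes the small subunit rRNA, had 0.52 ± 0.13 (adjusted p 0.0693), and PES1, of the PeBoW complex of large subunit assembly, 0.52 ± 0.15 (adjusted p 0.0904). FBL, the methyltransferase of rRNA, had 0.36 ± 0.19 (adjusted p 0.302) and NCL, nucleolin, 0.19 ± 0.18 (adjusted p 0.568).

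Of 14 genes that control ribosome production, 7 had a higher and 7 a lower fitted level in MET, and the median log2 fold change was -0.0019. MYC, a transcription factor that drives ribosome production in growing cells, was called and fell, with 29.5, 22.6, 10.2, 17.8 and 14 CPM in CON and 9.65, 5.98, 13.8, 7.41 and 6.08 in MET (log2 fold change -1.14 ± 0.27, adjusted p 0.0684 in the 12 libraries or 0.175 in the 10 samples). CON replicate 5 and the close pair of CON lay inside the range of the MET samples or within 1 CPM of it. MTOR had 0.024 ± 0.11, LARP1 -0.053 ± 0.14 and RPS6KB1, an S6 kinase, -0.034 ± 0.11, with adjusted p from 0.867 to 0.929. RPS6KB2, the other listed S6 kinase, had 0.32 ± 0.099, with every MET sample above every CON sample (adjusted p 0.106, or 0.0549 by DESeq2). EIF4EBP1, which mTORC1 releases from the cap-binding factor, ranged over 35.2 to 56.8 CPM in CON and 42 to 71.1 in MET (log2 fold change 0.36 ± 0.16, adjusted p 0.219). EIF4EBP2, with 11 to 41 reads per library, went the other way (log2 fold change -0.87 ± 0.27, adjusted p 0.11, or 0.0512 by DESeq2).

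Among the markers of other liver cells, all 8 macrophage genes had a higher fitted level in MET, with a median log2 fold change of 0.29, and C1QB and C1QC were called (log2 fold change 0.39 ± 0.11 and 0.41 ± 0.089, adjusted p 0.0855 and 0.0571). Their summed level was 1209 to 1629 CPM in CON and 1429 to 1914 in MET. Of 8 hepatocyte markers 6 had a lower fitted level in MET, with a median of -0.26, and APOB was called lower (log2 fold change -0.38 ± 0.11, adjusted p 0.0858). Of 8 lymphocyte markers 5 were tested, all with a higher fitted level and 0 called, with summed levels of 26.7 to 54.1 CPM in CON and 48.0 to 57.5 in MET. All 5 markers of stellate cells and fibroblasts had a lower fitted level, with sums of 560.5 to 861 and 429 to 709.8 CPM and LUM called (log2 fold change -0.70 ± 0.21, adjusted p 0.0986). Of 4 endothelial markers 3 had a lower fitted level and 0 were called (sums 182 to 342 and 164 to 298 CPM), and of 4 bile duct markers 3 were tested and 0 called (sums 41.5 to 67.9 and 23.7 to 61.5 CPM). Of 10 erythroid markers 2 were tested and 0 called, with sums of 7.57 to 963 CPM in CON and 57.3 to 460.3 in MET. The part of cell makeup in the levels of the ribosomal protein genes was not tested.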

How the data were processed

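Total RNA from the liver of 12 calves, 6 per maternal diet, was made into stranded mRNA libraries and sequenced from 1 end on 1 lane. The authors aligned the trimmed reads with STAR 2.5.3a to the bovine assembly UMD 3.1.1 and used featureCounts of Subread 1.5.2, strand-aware, and they deposited raw read counts per gene of each library, without normalization. A read with more than 1 match, in the genome or among genes, was left uncounted by default. Symbols were matched by Entrez gene ID to a table of RefSeq genes, which named 25105 of the 30336 genes. Its later assembly was used for no coordinate.

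Counts were scaled with TMM factors and tested with edgeR 4.0.16 (R 4.3.3, quasi-likelihood, diet alone, default filter with minimum counts of 10 per library and 15 in total, 13212 genes kept), with Benjamini-Hochberg adjustment over all genes tested and a threshold of 0.10. DESeq2 1.42.0 and limma 3.58.1 served as alternatives, and scaling, filter, close libraries, left-out libraries, replicate numbers and gene length were varied. Nothing was left out of the 12 libraries in the main test. The reads of each close pair were summed for the fits over 10 samples, and the CPM of a pair averaged for means and SD. The libraries have no molecular identifiers, so floors of 3 reads cover counting error only. In counts simulated for MET against CON as 12 independent libraries, 146 of 200 genes changed by a log2 fold change of 1 and 16 unchanged genes were called among 13070. The members had log2 fold changes of -0.091 to 0.46, so this recovery does not cover changes of their size or the close pairs. A simulated trend on length gave a correlation of log2 fold change and log2 length of -0.63 over 13036 genes, and -0.026 after its removal.

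The members and lists were chosen with earlier results of these data known. Members were named with values if called, if among the 5 largest or 3 smallest changes or the 5 highest or 3 lowest levels per length of a subunit, if paralogs or their partners, if of a chosen role (stalk, 5S particle, tunnel and its exit, mRNA entry, RPS6, RPS9, RPSA, RPS27A), or if under the filter. A few genes that met this rule or a list are not reported here, but count in totals and medians. Lists of other genes were written from textbook knowledge, and those named from them were the ones called by edgeR, some called by DESeq2 and familiar examples. Replicate numbers are shared between the diets without naming a shared dam, litter or day.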

Additional observations from a re-analysis of the deposited data

Results flagged for a closer look

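In 156 groups of 5 samples (a reported gene or summary in 1 diet), a sample far from the 4 others was sought by Dixon's ratio, with a critical value of 0.71, which chance alone passes in about 1 of 20 groups. It was found in 22 groups, and in 19 of them the sample was MET replicate 6. These groups share samples and genes of 1 kind and are not independent. The medians of both subunits were among them, with a deviation of 0.50 in the large and 0.54 in the small subunit, where the 4 other MET samples reached 0.052 and 0.064.

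Among large subunit genes MET replicate 6 had 448 CPM of RPL13 (others at most 202), 518 of RPL10 (372), 691 of RPL14 (525), 769 of RPL23 (571), 361 of RPL31 (253), 139 of RPL36AL (91.3) and 178 of RPL38 (124). Among small subunit genes it had 1879 CPM of RPS2 (others at most 1317), 803 of RPS12 (519), 785 of RPS3A (470.4), 678 of RPS27A (493), 533 of RPS7 (315), 524 of RPS10 (388), 279 of RPS4X (157) and 105 of RPS21 (82.8). Outside the set it had 724 CPM of RACK1 (others at most 570.0) and 240.5 of PABPC1 (205). The 3 remaining groups were IMP4 and LUM in MET replicate 5, with 32.3 CPM where the others had at least 51.5 and with 13.0 where they had at most 7.22, and NPM3 in CON replicate 6, with 2.49 CPM against at most 1.46. The cause of these values was not tested.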

How the results depend on the processing

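The positive medians of both subunits and of short genes outside the set held under all 26 alternatives, except under 2 for the large subunit. With the length trend removed, the large subunit median was -0.0071, and -0.0083 when the trend was fitted on genes outside the set, a fit chosen after seeing the data like DESeq2 over 10 samples, the length correction over 10 samples and 10 samples without MET replicate 6. The short genes then had medians of 0.032 and 0.031, and 0.039 over 10 samples. The calls were less steady. Against 2 large, 0 small and 583 genes in all, DESeq2 called 6, 5 and 1314, and over 10 samples 4, 1 and 639. For the large subunit edgeR called 0 over 10 samples, also without MET replicate 6 or with length removed, and 0 with library size only, without the filter and with either length correction. Over all genes these counts were 0 for each 10-sample fit, 107 for library size only, 238 without the filter, and 245 and 240 with length removed. The calls with library size only were 71 higher and 36 lower, against 276 and 307. At an unadjusted p of at most 0.05, 22 members (27.2%, against 17.4% of all genes) passed with library size only, 16 (19.8% against 14.8%) without the filter, 5 (6.17% against 17.8%) with length removed, 5 (6.17% against 13.8%) over 10 samples without MET replicate 6 and 3 (3.70% against 14.3%) over 10 samples with length removed. The cause of these shifts was not tested.

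With the replicate block, 0 large and 0 small subunit genes and 6 genes in all were called, with 12 members at an unadjusted p of at most 0.05, 14.8% of them against 17.2% of all genes. The medians were 0.15 and 0.19. Same-numbered libraries of the diets deviated from their group means with correlations from -0.19 to 0.15, and 0 libraries correlated best with their own number. The labels do not say what the numbers stand for, and these correlations cannot exclude a shared block behind them.

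Leaving out each library in turn gave 0 to 2 large subunit genes called and 26 to 565 genes in all, the lowest without CON replicate 1. The medians ran from 0.060 to 0.20 in the large and 0.12 to 0.26 in the small subunit, lowest without MET replicate 6. For 72 of the genes named with a test, 1682 of 1872 combinations of gene and alternative kept their side of the threshold, 179 lost the call and 11 gained it, and no call turned its sign. In 98 combinations the log2 fold change itself took another sign, among them RPL10, RPL11, RPL13 and RPS2 without MET replicate 6. Depth limits RPL3L and RPL10L, and the medians of the subunits were of the size of the SD of the medians between samples, 0.19 in both subunits.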
